A study of Mus musculus with 3 samples.

Results

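The glutathione S-transferases described here are the genes *Gsta4*, *Gstm1*, *Gstm2*, *Gstm5*, *Gstp1*, *Gsto1*, *Gstt1*, *Gstk1*, *Mgst1* and *Mgst3*, chosen by name as 10 of the 22911 genes that could be named on the arrays. The choice was made with earlier results of these data known. The 10 genes were read by 14 of 32994 named probes, in 3 mouse cell lines of BALB/c female origin. Colon26 is a parental colon adenocarcinoma line, NM11 is its low-metastatic subline and LuM1 its high-metastatic subline, and each was profiled on 1 single-colour array. The labels give no transgene, knockdown or drug for any line, and all were grown in the same serum-containing medium for 3 days before total RNA was taken. The comparison asks how gene expression in the metastatic subline differs from that in the parental line and in the less metastatic subline.

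Glutathione S-transferases join the tripeptide glutathione to electrophilic compounds, such as products of lipid peroxidation, carcinogens and several anticancer drugs, and the conjugates are then pumped out of the cell. The cytosolic enzymes fall into the alpha, mu, pi, sigma, theta, omega and zeta classes, and the kappa enzyme lies in mitochondria and peroxisomes. The microsomal enzymes belong to a separate family of membrane proteins that also makes eicosanoids. In the gut wall these enzymes belong to the defence against compounds from food, and in tumors they are known for their part in drug resistance.

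Between 49.9% and 53.8% of all probes were well above background by the scanner's own criterion, and none was saturated. Signals are given after each array had been brought to the same 75th percentile of 585.1, where the dimmest signal well above background was 26.4 in Colon26, 20.1 in LuM1 and 19.6 in NM11. Where a probe missed that criterion in 1 of the lines, the ratio is a bound, marked by "at least". Errors are the scanner's estimate of technical error, about 10.0% of a bright signal. Since every line had a single array, no test was run, no difference has a replicate check, the number of arrays limits the precision, and a gene counts as higher or lower where its ratio reached 2-fold. In RNA from a whole culture, fewer cells with a transcript and less transcript per cell cannot be told apart.

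Set against Colon26 cells, LuM1 cells had 3 of the 10 genes higher by 2-fold or more, namely *Gstt1*, *Gstk1* and *Mgst1*, and 3 lower by as much, namely *Gsta4*, *Gstm2* and *Mgst3*. Over all 14353 genes compared between these lines, 12.9% were higher and 11.7% were lower by that measure. The 10 genes and the gene lists below were chosen with earlier results of these data known. Such counts therefore cannot show whether a list changed more than other genes. In NM11 cells 3 of the 9 genes compared were higher than in Colon26 cells (*Gstm2*, *Gstt1* and *Mgst1*), against 8.17% of all genes, and *Gsta4* was lower, against 7.74% of all genes. Between the sublines, *Gstt1* and *Gstk1* were higher in LuM1 cells, against 11.1% of all genes, and *Gstm2* and *Mgst1* were lower, against 8.5% of all genes. The family did not move one way: the median log2 ratio of its members, bounds taken at their value, was -0.15 for LuM1 over Colon26, -0.39 for NM11 over Colon26 and 0.05 for LuM1 over NM11, beside -0.10, -0.01 and -0.09 for all genes. Both sublines were set against the same Colon26 array, so the ratios over Colon26 share its error.

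**Figure D1:**
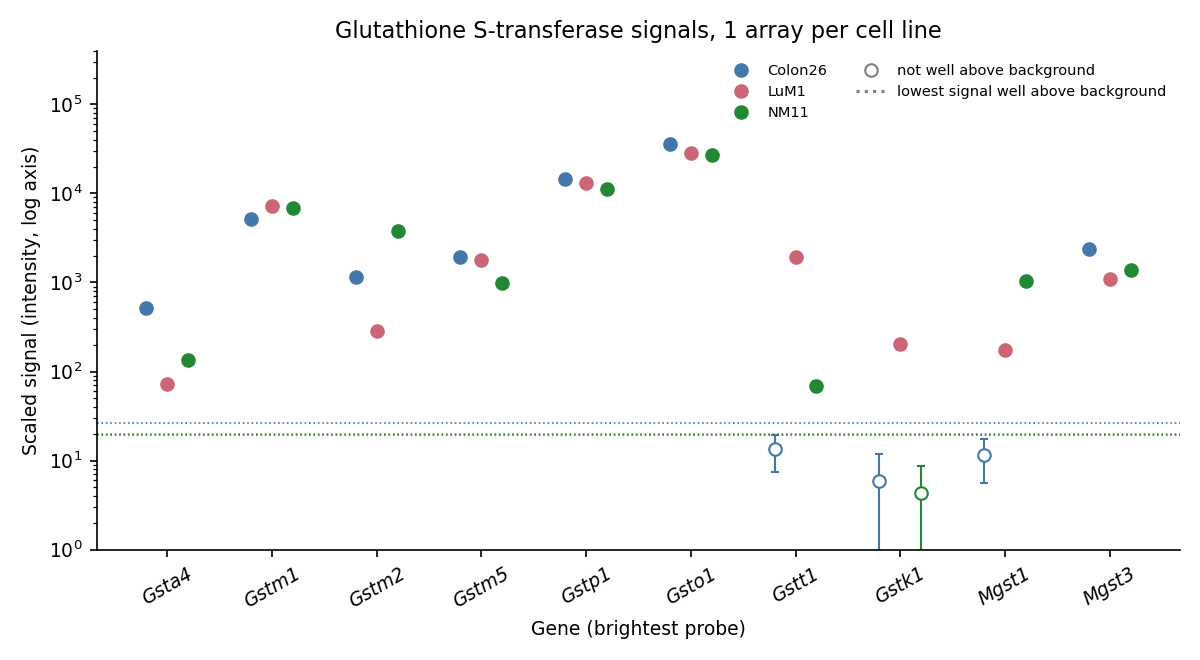
Scaled signal (log axis) of the brightest probe of each transferase gene on the single array of Colon26 (blue), LuM1 (red) and NM11 (green), with the scanner error as bars, which are hidden by the symbols for bright signals. Open circles mark signals not well above background and dotted lines the lowest signal well above background; *Gstt1* runs from an open circle in Colon26 to 1936 in LuM1, while *Gstp1* and *Gsto1* differ little between the lines.

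*Gstt1*, the theta-class enzyme that acts on small halogenated molecules, differed between all 3 lines, with its highest level in LuM1 cells. Its scaled signal was 1936 ± 194 in LuM1 cells and 69.5 ± 8.17 in NM11 cells. In Colon26 cells the probe was not well above background, at 13.5 ± 6.09. LuM1 thus stood far above both other lines, and NM11 stood above Colon26. The mRNA level of LuM1 cells exceeded that of Colon26 cells at least 73.3-fold, a log2 bound of 6.20, and 0.416% of all genes with a ratio lay as far or farther in that direction. It exceeded that of NM11 cells 27.8-fold (log2 4.80, scanner error 0.22). Under the alternatives, the lowest log2 bound over Colon26 was 4.51, after normexp background correction. With a looser detection rule, which the probe passed in Colon26 cells, it became a measured log2 ratio of 7.16. The log2 ratio over NM11 ran from 3.76 (normexp) to 5.39 (scaling to *Hprt*). In NM11 cells the level was at least 2.63-fold higher than in Colon26 cells, but this log2 bound of 1.40 came to 0.91 when the arrays were scaled to *Hprt* and to 0.75 after normexp correction, both under 2-fold. RefSeq places *Gstt1* on the minus strand of chromosome 10, between *Gstt3* and *Gstt4*, and the 250 bases before its start (chr10:75797732-75797981, GRCm38.p6, minus strand) are shown because *Gstt1* followed the same order of lines as *Gstt3* and *Gstt2* of its cluster. They were searched for the antioxidant response core, the element bound by NRF2 (the product of *Nfe2l2*), an activator of many transferase genes. The core was written TGACNNNGC and searched on both strands, no other motif was searched, and 10.2% of the 32851 promoters in the RefSeq table held it in a window of the same length. The window of *Gstt1* holds no match and 6 CpG dinucleotides, beside a median of 6.0 over all promoters.
Gstt1: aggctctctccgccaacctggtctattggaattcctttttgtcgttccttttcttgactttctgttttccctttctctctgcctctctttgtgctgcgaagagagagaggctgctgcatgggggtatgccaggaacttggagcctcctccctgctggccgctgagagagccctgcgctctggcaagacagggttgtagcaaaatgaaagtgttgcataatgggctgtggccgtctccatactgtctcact

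The pattern of *Gstt1* was set beside those of the other theta-class genes, which were picked out after their values were seen, because RefSeq lists *Gstt3*, *Gstt1*, *Gstt4* and *Gstt2* as neighbours on chromosome 10 with no other coding gene between them. *Gstt3* gave 1947 ± 195 in LuM1 cells, 424 ± 42.6 in NM11 cells and 169 ± 17.8 in Colon26 cells. *Gstt2* gave 204 ± 20.9 in LuM1 cells and 85.3 ± 9.60 in NM11 cells, and its 5.99 ± 6.01 in Colon26 cells was not well above background. Both genes thus followed the same order as *Gstt1*, with LuM1 highest, NM11 between and Colon26 lowest. *Gstt3* was 11.54-fold higher in LuM1 cells than in Colon26 cells and 2.52-fold higher in NM11 cells than in Colon26 cells, and *Gstt2* was at least 7.72-fold and at least 3.23-fold higher. *Gstt4* was not well above background on any array. The theta genes are similar in sequence, and the probe sequences were not used here, so how far 1 transcript was read by the probe of another was not tested.

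**Figure D2:**
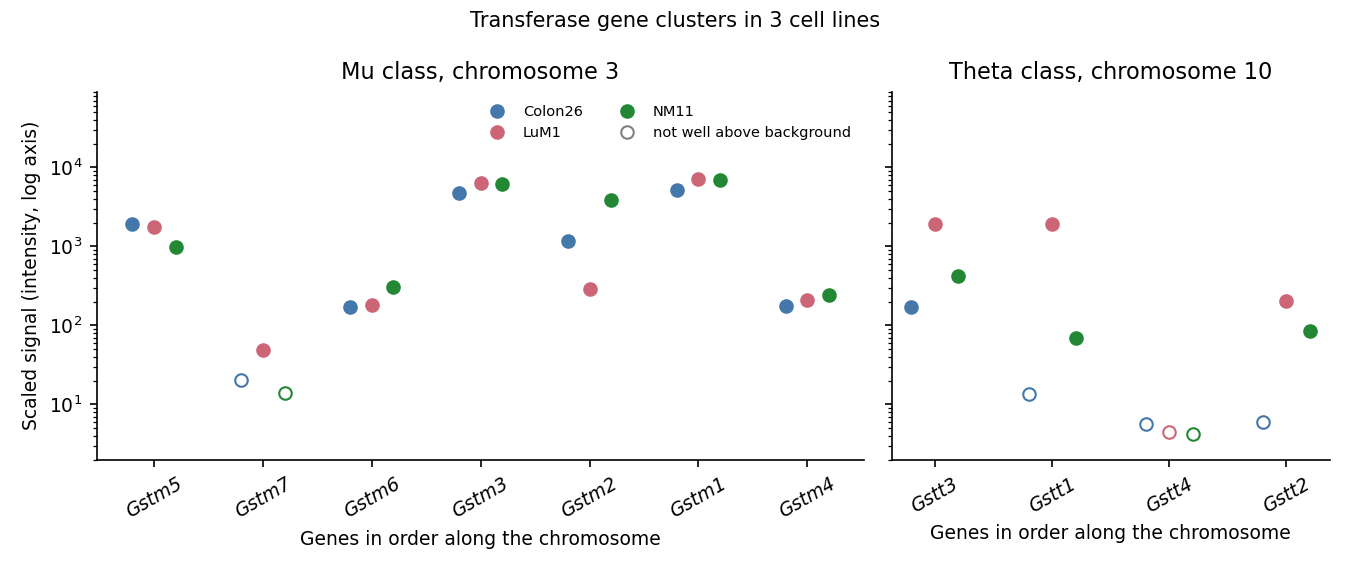
Scaled signal (log axis) of the mu-class genes on chromosome 3 and the theta-class genes on chromosome 10, in their order along the chromosome, in Colon26 (blue), LuM1 (red) and NM11 (green), with 1 array each. Open circles are not well above background; *Gstt3*, *Gstt1* and *Gstt2* are each highest in LuM1, whereas in the mu cluster *Gstm2* is lowest in LuM1 and highest in NM11, at 288.5 and 3826.

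*Gstk1* encodes the kappa-class enzyme of mitochondria and peroxisomes. Its probe gave 202 ± 20.8 in LuM1 cells. In Colon26 cells it gave 5.91 ± 5.94 and in NM11 cells 4.35 ± 4.36, both not well above background. *Gstk1* was therefore the 1 gene among the 10 that was well above background in LuM1 cells alone. The *Gstk1* level of LuM1 cells exceeded that of Colon26 cells at least 7.66-fold and that of NM11 cells at least 10.3-fold, and no ratio was taken between Colon26 and NM11. These bounds moved with the processing, the log2 bound over Colon26 running from 1.72 after normexp background correction to 5.10 with a looser detection rule and that over NM11 from 1.77 to 5.54 with the same settings, but stayed above 2-fold under every alternative tried. The 250 bases before its start (chr6:42245685-42245934, GRCm38.p6, plus strand) hold 10 CpG dinucleotides and no match to the antioxidant response core, and are shown because *Gstk1* and *Gstt1* were the 2 members whose level in LuM1 cells exceeded those of both other lines by 2-fold or more.
Gstk1: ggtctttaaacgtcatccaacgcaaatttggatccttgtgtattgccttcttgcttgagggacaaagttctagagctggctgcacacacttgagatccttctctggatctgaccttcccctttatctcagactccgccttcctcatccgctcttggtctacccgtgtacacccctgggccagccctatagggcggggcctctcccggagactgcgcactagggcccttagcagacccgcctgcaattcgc

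Markers of myeloid cells were also read, since some of them were highest in LuM1 cells like *Gstt1* and *Gstk1*. *Cd68*, a lysosomal protein of macrophages, gave 5251 ± 525 in LuM1 cells, 299 ± 30.2 in NM11 cells and 172 ± 18.1 in Colon26 cells, and *Lyz2*, the lysozyme of myeloid cells, was well above background in LuM1 cells alone, at 112 ± 12.1. *Ptprc*, the pan-leukocyte antigen, and *Adgre1*, a surface antigen of macrophages, were not well above background on any array, and *Csf1r* differed little, at 682, 691 and 675 in Colon26, LuM1 and NM11 cells. The summed signal of the 5 markers was 875.5 in Colon26 cells, 6066 in LuM1 cells and 998.8 in NM11 cells, and the part of these markers in the results on *Gstt1* and *Gstk1* was not tested.

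*Mgst1* encodes a microsomal transferase of the endoplasmic reticulum and outer mitochondrial membrane that also reduces lipid hydroperoxides. Its brighter probe gave 1030.2 ± 103 in NM11 cells and 174 ± 18.0 in LuM1 cells. In Colon26 cells it gave 11.6 ± 6.02 and was not well above background. Both sublines thus stood above Colon26, and NM11 stood above LuM1. Relative to Colon26 cells the *Mgst1* level was at least 39.0-fold higher in NM11 cells and at least 6.60-fold higher in LuM1 cells. LuM1 cells had a level 5.91-fold lower than NM11 cells (log2 -2.56, scanner error 0.21). After normexp background correction the log2 bounds over Colon26, 5.29 for NM11 and 2.72 for LuM1, came to 3.78 and 1.54. With a looser detection rule, which this probe passed in Colon26 cells, they became measured log2 ratios of 6.47 and 3.91. Scaling to *Hprt* brought the log2 ratio between the sublines to -1.97. The other probe showed the same order, with log2 bounds of 4.51 and 2.08 over Colon26 and a log2 ratio of -2.42 between the sublines. Of all genes with a ratio, 0.354% lay as far above Colon26 in NM11 cells as *Mgst1*.

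The promoter of *Mgst1* is shown because it holds a match to the antioxidant response core. Of the 9 transferase genes that have a promoter in the table, 2 held a match, and *Gsta4* has no entry. Counted by promoter, 2 of the 11 promoters of these 9 genes held it, beside 10.2% of all promoters in the table. For *Mgst1* the match lay on the minus strand, 56 bases before the start on the window chr6:138140277-138140526 (GRCm38.p6, plus strand), and is printed in capitals as it reads on the plus strand. A second listed start of *Mgst1* had no match.
Mgst1: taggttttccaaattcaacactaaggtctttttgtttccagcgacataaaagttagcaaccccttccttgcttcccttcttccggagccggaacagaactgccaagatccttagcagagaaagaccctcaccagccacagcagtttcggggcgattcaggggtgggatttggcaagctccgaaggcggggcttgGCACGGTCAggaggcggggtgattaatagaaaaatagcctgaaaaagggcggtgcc

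*Mgst3*, the other microsomal member and an enzyme able to make cysteinyl leukotrienes, ran the other way. Its scaled signal was 2391 ± 239 in Colon26 cells, 1105 ± 111 in LuM1 cells and 1389 ± 139 in NM11 cells, so that Colon26 was highest. LuM1 cells had a 2.16-fold lower level than Colon26 cells, a log2 ratio of -1.11 just past 2-fold, and this came to -0.67 in the authors' processed values. In NM11 cells it was 1.72-fold lower (log2 -0.78), which reached -1.27 after scaling to *Hprt*. The sublines differed by a log2 ratio of -0.33, whose sign turned with 3 of the scalings, up to 0.26.

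*Gstm2*, a mu-class enzyme, was the member whose levels in the sublines lay on opposite sides of Colon26. Its scaled signal was 3826 ± 383 in NM11 cells, 1162 ± 116 in Colon26 cells and 288.5 ± 29.2 in LuM1 cells, with all spots well above background. NM11 was highest and LuM1 lowest, and the gaps were many times the scanner error. Against Colon26 cells, the level was 4.03-fold lower in LuM1 cells (log2 -2.01) and 3.29-fold higher in NM11 cells (log2 1.72). Between the sublines the level was 13.3-fold lower in LuM1 cells (log2 -3.73, scanner error 0.21), and 0.84% of all genes with a ratio lay as far or farther in that direction. Under the other scalings this ratio ran from -3.77 to -3.14. The window before its start (chr3:107986421-107986670, GRCm38.p6, minus strand) is printed because *Gstm2* was the mu-class member with the widest difference between the sublines, and holds 3 CpG dinucleotides and no match to the antioxidant response core.
Gstm2: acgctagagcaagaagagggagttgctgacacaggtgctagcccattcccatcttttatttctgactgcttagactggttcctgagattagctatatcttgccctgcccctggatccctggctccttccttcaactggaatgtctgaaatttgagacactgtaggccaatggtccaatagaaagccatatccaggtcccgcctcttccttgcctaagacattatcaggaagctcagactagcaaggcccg

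*Gstm1*, the mu-class enzyme known for its abundance in liver, differed little between the lines. Its brighter probe gave 5181 ± 518 in Colon26 cells, 7159 ± 716 in LuM1 cells and 6893 ± 689 in NM11 cells. The log2 ratios over Colon26 were 0.47 for LuM1 and 0.41 for NM11, the latter turning to -0.08 after scaling to *Hprt*, and the sublines differed by 0.05. The second probe gave 0.44, 0.41 and 0.03 for the same ratios.

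*Gstm5*, a mu-class enzyme found in brain and testis, was lowest in NM11 cells on both of its probes. The brighter one gave 1947 ± 195 in Colon26 cells, 1772 ± 177 in LuM1 cells and 978 ± 97.85 in NM11 cells. NM11 cells had a 1.99-fold lower level than Colon26 cells, a log2 ratio of -0.99 that fell just short of 2-fold and reached -1.48 after scaling to *Hprt*. LuM1 and Colon26 differed by -0.14, which became 0.31 in the authors' processed values. The second probe gave -0.96 for NM11 and -0.14 for LuM1. For LuM1 over NM11 the log2 ratio was 0.86 on the brighter probe and 0.82 on the second, both under 2-fold. On the brighter probe this ratio passed 2-fold without scaling, with the E1A spike-in controls, in the authors' processed values and with *Hprt* (1.45). *Gstm5* was the other transferase gene with a match to the antioxidant response core, on the plus strand 42 bases before the start (chr3:107895604-107895853, GRCm38.p6, plus strand), and its window holds 13 CpG dinucleotides.
Gstm5: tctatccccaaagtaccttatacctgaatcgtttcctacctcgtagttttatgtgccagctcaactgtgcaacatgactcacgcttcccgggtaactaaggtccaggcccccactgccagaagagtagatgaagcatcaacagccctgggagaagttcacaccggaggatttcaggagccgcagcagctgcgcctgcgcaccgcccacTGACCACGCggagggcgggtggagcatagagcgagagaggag

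The mu-class genes lie side by side on chromosome 3 in the order *Gstm5*, *Gstm7*, *Gstm6*, *Gstm3*, *Gstm2*, *Gstm1* and *Gstm4*, and they did not share 1 pattern. *Gstm3*, next to *Gstm2* on 1 side, had log2 ratios over Colon26 of 0.40 in LuM1 cells and 0.38 in NM11 cells, and *Gstm1*, on its other side, had the values given above. *Gstm4* and *Gstm6* stayed within 2-fold in every comparison, with their highest signals in NM11 cells, at 245.5 ± 24.9 and 307 ± 30.9. *Gstm7* was well above background in LuM1 cells alone, at 48.9 ± 6.44. Mu-class transcripts are close in sequence, and reading of 1 transcript by the probe of another was not tested.

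*Gsta4* encodes the alpha-class enzyme that conjugates hydroxynonenal, an aldehyde from oxidized lipids. Its scaled signal was 511 ± 51.4 in Colon26 cells, 134 ± 14 in NM11 cells and 72.7 ± 8.43 in LuM1 cells. Colon26 stood above both sublines. Against Colon26 cells, the level was 7.02-fold lower in LuM1 cells (log2 -2.81) and 3.81-fold lower in NM11 cells (log2 -1.93), each with a scanner error of 0.22 or less, and the former came to -2.05 after normexp background correction. Between the sublines the log2 ratio was -0.88, and it ran from -1.14 after quantile normalization to -0.29 after scaling to *Hprt*. *Gsta4* was thus the 1 member at least 2-fold lower in both sublines than in Colon26.

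The related alpha-class genes *Gsta2* and *Gsta3* and the sigma-class enzyme *Hpgds*, which makes prostaglandin D, were also highest in Colon26 cells. *Gsta2* gave 942 ± 94.35 in Colon26 cells, *Gsta3* gave 437 ± 44.1 on 1 of its 2 probes, and *Hpgds* gave 360.3 ± 36.5, while none of them was well above background in LuM1 or NM11 cells. The levels in LuM1 cells were at least 46.8-fold, 21.7-fold and 17.9-fold lower. The other probe of *Gsta3* was not well above background on any array. The scanner software called 1.89% of all spots well above background on the Colon26 array alone, but within 21 rows and columns around these spots the share was 3.15% for *Gsta2*, 5.50% for *Gsta3* and 8.43% for *Hpgds*. It was 1.21% around the spot of *Gsta4* and between 0.24% and 4.64% for the 14 probes of the 10 genes described here, the highest being that of the brighter *Gstm1* probe. The LuM1 array had 3.49% of its spots well above background alone, and the share was 5.02% around the spot of *Gstk1*, 3.18% around that of *Gstt1*, 7.21% around that of *Gstt2*, 2.65% around that of *Gstt3* and between 2.18% and 5.76% for the 14 probes of the 10 genes. The part of spot position in these results was not tested.

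*Gstp1*, the pi-class enzyme that is often raised in tumors, and *Gsto1*, the omega-class enzyme that reduces dehydroascorbate and removes glutathione from proteins, varied least among the members read in every line, together with *Gstm1*. *Gstp1* gave 14617 ± 1462 in Colon26 cells, 13016 ± 1302 in LuM1 cells and 11156 ± 1116 in NM11 cells. *Gsto1* gave 36275 ± 3628 in Colon26 cells, 28169 ± 2817 in LuM1 cells and 27142 ± 2714 in NM11 cells. Neither gene reached 2-fold in any comparison. The log2 ratios of LuM1 over Colon26 were -0.17 for *Gstp1*, within its scanner error of 0.20, and -0.37 for *Gsto1*, and these became 0.28 and 0.08 in the authors' processed values. Those of NM11 over Colon26 were -0.39 and -0.42 under the 75th percentile, and came to -0.88 and -0.91 after scaling to *Hprt*. The second probe of *Gsto1* gave -0.44 and -0.37 for the same ratios. The probe of the neighbouring gene *Gstp2*, whose transcript is close to that of *Gstp1*, gave log2 ratios of -0.15 and -0.25, and the share of each transcript in the signals of both probes was not tested.

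**Figure D3:**
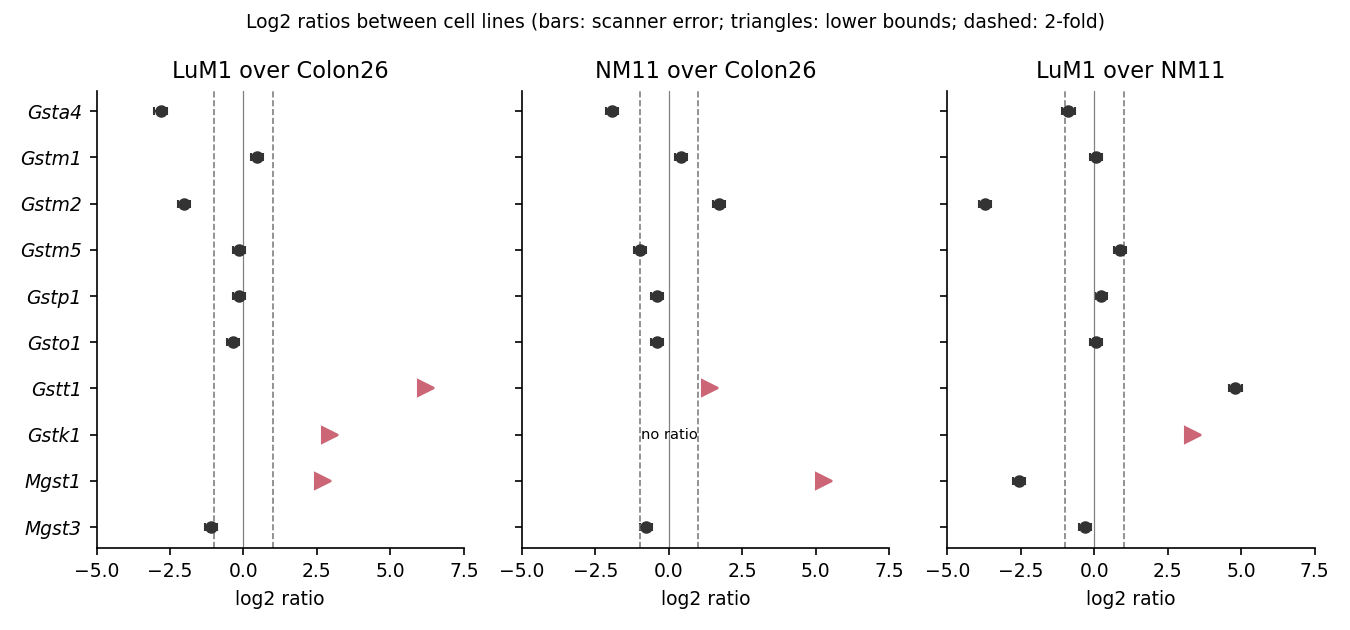
Log2 ratio of each transferase gene for LuM1 over Colon26, NM11 over Colon26 and LuM1 over NM11, from 1 array per line. Black circles are ratios measured on both arrays with the scanner error as bars, red triangles are lower bounds, dashed lines mark 2-fold, and "no ratio" marks *Gstk1* where neither array was well above background; *Gstm2* lies at -2.01 in the first panel and 1.72 in the second.

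Of the 18 other transferase and related genes with a probe, 16 could be compared between LuM1 and Colon26, with 4 at least 2-fold higher (*Gstt2*, *Gstt3*, *Alox5ap* and *Ltc4s*) and 3 lower (*Gsta2*, *Gsta3* and *Hpgds*), beside 12.9% higher and 11.7% lower among all genes. The median log2 ratio of these genes was 0.28, beside -0.10 for all genes. *Alox5ap*, the membrane protein that hands arachidonic acid to the leukotriene pathway, had a signal of 2833 ± 283 in LuM1 cells, 147 ± 15.3 in NM11 cells and 127 ± 13.8 in Colon26 cells, 22.4-fold higher in LuM1 cells than in Colon26 cells. *Ltc4s*, the synthase that joins glutathione to leukotriene, was 2.07-fold higher in both LuM1 and NM11 cells than in Colon26 cells. *Alox5ap* is also a gene of myeloid cells, whose marker values are given above. *Ptges*, a prostaglandin E synthase, does not count among the higher genes because its brightest probe read 1.26-fold for LuM1 over Colon26, while its 2 other probes read 4.12-fold and 4.36-fold. *Mgst2* and *Gstz1* stayed within 2-fold in every comparison.

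**Figure D4:**
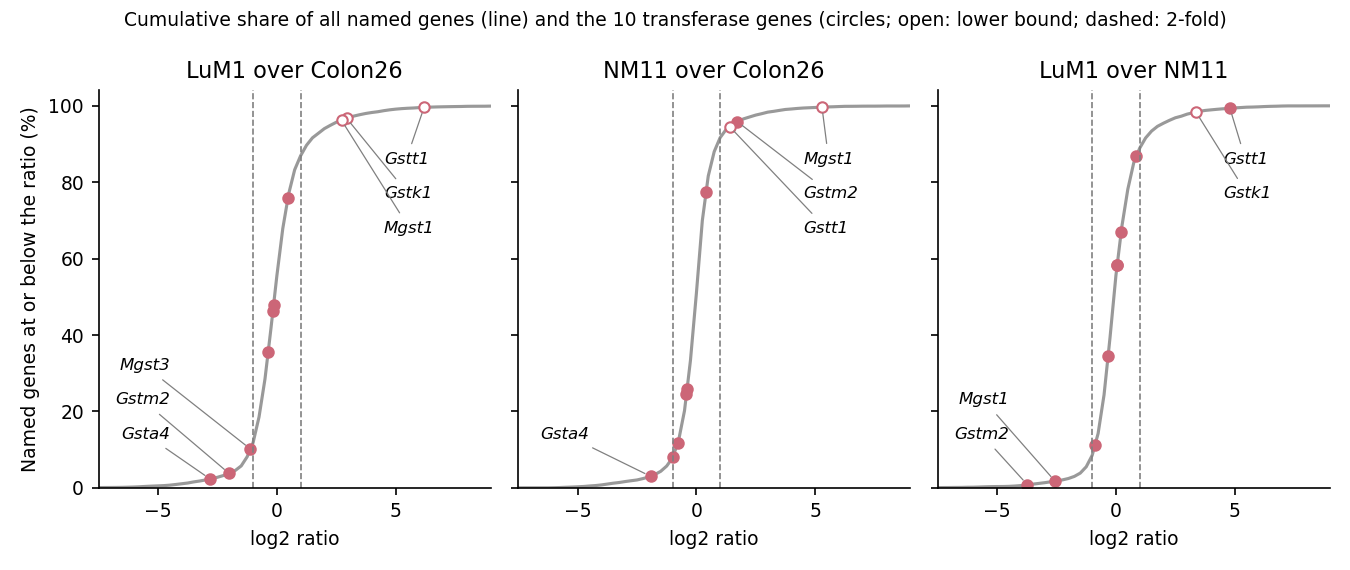
Cumulative percent of named genes at or below each log2 ratio (grey line) for the 3 comparisons, with the transferase genes as red circles placed on the line, open where the ratio is a lower bound; 1 array per line, dashed lines at 2-fold. *Gstt1* and *Mgst1* lie near the upper end, for LuM1 and for NM11 over Colon26 respectively, and *Gstm2* lies near the lower end in LuM1 over NM11, where 0.84% of genes lie as far or farther.

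Genes of glutathione synthesis and breakdown were compared next. Between LuM1 and Colon26, 1 of 13 such genes was at least 2-fold higher and 5 were lower (12.9% and 11.7% of all genes), with a median log2 ratio of -0.60 beside -0.10 for all genes. Between NM11 and Colon26, 1 of 13 was higher and 1 was lower (8.17% and 7.74% of all genes), with a median of -0.06 beside -0.01. *Gclc* and *Gclm*, the subunits of the rate-limiting ligase of glutathione synthesis, had log2 ratios of -0.49 and -0.60 for LuM1 over Colon26, within 2-fold. *Gss*, the synthetase that completes glutathione, gave 7137 ± 714 in Colon26 cells, 3467 ± 347 in LuM1 cells and 6394 ± 639 in NM11 cells, 2.06-fold lower in LuM1 cells than in Colon26 cells, but its second probe read 1.90-fold, short of the threshold. *Cth*, which releases cysteine from cystathionine, was 4.54-fold lower in LuM1 cells than in Colon26 cells and 5.50-fold lower than in NM11 cells. *Ggt1*, which starts the breakdown of glutathione outside the cell, was not well above background in LuM1 cells and was 2.30-fold higher in NM11 cells than in Colon26 cells. *Oplah*, which recycles oxoproline to glutamate, was 2.49-fold higher in LuM1 cells than in Colon26 cells. *Chac1* and *Chac2*, which split glutathione inside the cell, had log2 ratios of -1.32 and -1.31 for LuM1 over Colon26, and the aminopeptidase *Anpep* had -1.99 for NM11 over Colon26.

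Among the reductase, peroxidases, glutaredoxins and glyoxalases, LuM1 cells had 3 of 13 genes higher than Colon26 cells by 2-fold or more and 2 lower (12.9% and 11.7% of all genes), with a median log2 ratio of -0.35 beside -0.10 for all genes. *Glrx*, a glutaredoxin that removes glutathione from proteins, gave 691 ± 69.3 in Colon26 cells, 9033 ± 903 in LuM1 cells and 3875 ± 388 in NM11 cells, 13.1-fold and 5.61-fold higher in the sublines than in Colon26 cells. *Gpx7*, a peroxidase of the endoplasmic reticulum, was well above background in LuM1 cells alone, at 338 ± 34.1, as was the case for *Gstk1*. *Gpx2*, a peroxidase of the gut epithelium, was 3.36-fold higher in LuM1 cells than in Colon26 cells, and the mitochondrial glutaredoxin *Glrx5* was 2.51-fold lower, as was *Esd*, an esterase that frees glutathione from its formaldehyde adduct, by 2.21-fold. *Gsr*, which regenerates reduced glutathione, had log2 ratios over Colon26 of -0.38 in LuM1 cells and 0.20 in NM11 cells. Among the genes that export conjugates or turn them into mercapturic acids, *Nat8*, the acetyltransferase of the last step, was at least 4.91-fold higher in LuM1 cells and at least 3.31-fold higher in NM11 cells than in Colon26 cells, and *Abcc1*, an exporter of glutathione conjugates, stayed within 2-fold.

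The regulators *Nfe2l2* and *Keap1* stayed within 2-fold in every comparison. *Nfe2l2*, which encodes the activator NRF2, had log2 ratios over Colon26 of 0.21 in LuM1 cells and 0.41 in NM11 cells, and *Keap1*, which encodes its inhibitor, had 0.07 and 0.44. Of 22 regulators and target genes compared between LuM1 and Colon26, 2 were at least 2-fold higher (*Bach1* and *Hmox1*) and 2 were lower (*Nqo1* and *Cbr3*), beside 12.9% and 11.7% of all genes, with a median log2 ratio of -0.09 beside -0.10. *Nqo1*, a quinone reductase, gave 336 ± 34.1 in Colon26 cells and was not well above background in either subline, and *Cbr3*, a carbonyl reductase, gave 436 ± 43.9 in Colon26 cells and was likewise not well above background in the sublines. The share of spots well above background on the Colon26 array alone was 4.29% around the spot of *Nqo1* and 0.95% around that of *Cbr3*. *Hmox1*, the inducible heme oxygenase, was 2.61-fold higher in LuM1 cells than in Colon26 cells and 1.98-fold higher in NM11 cells.

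The labelled tissue was checked against its markers. Of 10 colon epithelial markers, 5 were not well above background on any array. These were the adhesion protein *Cdh1*, the keratins *Krt18* and *Krt19*, the cytoskeletal protein *Vil1* and the mucin *Muc2*. *Epcam* was well above background in LuM1 cells alone, at 28.0 ± 5.18. The markers that were read did not follow 1 pattern. *Krt20*, an intestinal keratin, had log2 ratios over Colon26 of -3.58 in LuM1 cells and -2.05 in NM11 cells, and the lectin *Lgals4* had -1.47 and -1.54. The factor *Cdx2* had -0.94 and -1.41, while the keratin *Krt8* had 1.89 and 0.36. All 6 mesenchymal markers were well above background in every line. *Col1a2*, a collagen chain, gave 85275 ± 8527 in NM11 cells, 59896 ± 5990 in Colon26 cells and 49.6 ± 6.89 in LuM1 cells, and *Col1a1* was 2.19-fold lower in LuM1 cells than in Colon26 cells. The other 4 mesenchymal markers stayed within 2-fold on their brightest probes. The probes of *Acta2* disagreed, however. Another of them gave 48.6 ± 7.32 in Colon26 cells, 1766 ± 177 in LuM1 cells and 1641 ± 164 in NM11 cells. Its remaining probe was not well above background on any array. The endothelial markers *Cdh5* and *Kdr* were not well above background on any array. *Pecam1*, the other endothelial marker read, was well above background on every array. It gave 51.3 ± 7.62 in Colon26 cells, 52.95 ± 6.84 in LuM1 cells and 78.3 ± 8.83 in NM11 cells. The part of such differences between the cultures in the transferase results was not tested. *Hprt*, an internal control of the study, had log2 ratios over Colon26 of -0.10 in LuM1 cells and 0.49 in NM11 cells.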

How the data were processed

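For each line, 1 Agilent mouse array was hybridized with single-dye cRNA made from 0.1 µg of total RNA of Colon26, LuM1 or NM11 cells. As the authors deposited them, the spot intensity values (Agilent Feature Extraction 11.5.1.1) had the background subtracted and a trend removed within the array, with no scaling between arrays. A second table of intensity values deposited by the authors proved to hold the scanner values multiplied by a constant, which was 0.654 in the Colon26 column, 0.829 in the LuM1 column and 0.706 in the NM11 column. Flags of 0 or 1 per spot (outlier, saturated, above background) came with the scanner output.

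Control spots were left out, and so were outlier spots, none of which was a transferase spot. Each array was scaled so that the 75th percentile of its non-control spots, 581.1 for Colon26, 625.1 for LuM1 and 551.5 for NM11, became 585.1. Probes were named through RefSeq accessions of GRCm38.p6 (58.3% of 56605 probes), and the brightest probe stood for its gene. A probe not well above background was set to the dimmest signal well above background on that array, or to its own where that was higher. No ratio was taken where neither array was well above background, and no bound under 1 was given. Ratios are on the log2 scale, and the genes compared are those well above background on at least 1 of the 2 arrays.

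The members and gene lists were chosen with earlier results of these data known. All transferase genes are named, and of the other lists up to 4 genes at least 2-fold apart from Colon26 in both sublines or in LuM1 from both other lines, all such genes of a list where they were 5 or fewer, and *Nfe2l2*, *Keap1*, *Gclc*, *Gclm*, *Gss*, *Gsr* and *Hprt* always. The other theta-class and mu-class genes, *Gstp2*, *Ltc4s*, *Mgst2*, *Gstz1*, *Ptges*, *Abcc1*, *Chac1*, *Chac2*, *Anpep*, *Esd*, *Bach1*, *Hmox1* and the remaining markers were named after their values were seen.

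Alternatives left the arrays unscaled, scaled them to *Hprt*, to E1A spike-in controls or to the median of probes measured on all arrays, took quantile-normalized or the authors' processed values, or corrected the background with normexp (offset 50, on the median spot brightness, the column the files hold). Others loosened or dropped the detection criterion, averaged over the probes of a gene, or asked for 4-fold. Percentiles over probes, and over spots without outliers, were added after seeing the data. The calling steps were checked on simulated data for ratios measured on both arrays. The step that sets bounds was not checked in this way. Promoters are the 250 bases before each start in a RefSeq table. Python 3.11.15 (numpy 2.4.6, pandas 2.3.3, scipy 1.17.1, matplotlib 3.10.9) and R 4.3.3 with limma 3.58.1 were used.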

Additional observations from a re-analysis of the deposited data

Results flagged for a closer look

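*Gstm2* was singled out because its difference from Colon26 had opposite signs in the sublines, with a log2 ratio of -2.01 in LuM1 cells and 1.72 in NM11 cells. With 1 array per line the difference between these effects was not tested, and both ratios share the Colon26 array. *Gstm2* was read by 1 probe, whose spot was not marked as an outlier on any array.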

How the results depend on the processing

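The count of transferase genes at least 2-fold higher in NM11 cells than in Colon26 cells went from 3 to 1 at a 4-fold threshold. The count of lower genes in that comparison, 1, became 2 without scaling and with the percentile over spots without outliers, an alternative chosen after seeing the data, 3 after scaling to *Hprt* or to the E1A controls, and 0 at 4-fold, and *Gstm5* (-0.99) and *Mgst3* (-0.78) are the genes near the threshold. In the other 72 of 78 recounts the number stayed within 1.5 times of that reported. This margin lets a change from 3 to 2 or from 2 to 3 pass. NM11 over Colon26 had 2 higher genes with *Hprt* or normexp. LuM1 over Colon26 had 2 lower genes with the authors' values or at 4-fold. For LuM1 over NM11, *Hprt*, E1A, the authors' values and no scaling each gave 3 higher genes, and quantile normalization gave 3 lower genes. No ratio past 2-fold of a transferase gene changed sign. Of the ratios of single members, 270 of 348 recomputed values moved by less than the scanner error. Part of both counts, 72 and 270, was fixed in advance. A ratio measured on both arrays does not depend on the detection criterion, and averaging over probes cannot move a gene with 1 probe. For bounds the scanner error includes that of the dim probe, as with 1.46 for *Gstk1* in LuM1 over Colon26. Neither count is therefore a measure of how stable the ratios were. The median log2 ratio of the 10 genes moved to 0.29 in the authors' processed values for LuM1 over Colon26, to -0.88 (*Hprt*) and -0.76 (E1A) for NM11 over Colon26, and to 0.64 (*Hprt*), 0.41 (E1A), 0.34 (quantile) and 0.47 (authors' values) for LuM1 over NM11. Scaling to *Hprt* shifted the median of all genes by -0.50 for NM11 over Colon26 and by 0.60 for LuM1 over NM11, E1A by -0.38 and 0.36, and the authors' values by 0.44 for LuM1 over Colon26 and 0.42 for LuM1 over NM11. No scaling shifted it by 0.11 for LuM1 over Colon26 and by 0.18 for LuM1 over NM11, *Hprt* by 0.10 for LuM1 over Colon26. Of the genes called between NM11 and Colon26, 51.4% were higher, but 20.1% after scaling to *Hprt* and 26.5% to E1A. Of those called between LuM1 and NM11, 56.6% were higher, but 87.8% (*Hprt*), 78.7% (E1A), 81.4% (authors' values) and 68.6% (no scaling). For LuM1 over Colon26 the share of 52.5% became 77.7% in the authors' values. No paired analysis was possible because each line had 1 array. With the detection criterion of the reported ratios, signal over background limits *Gstt1*, *Gstk1* and *Mgst1* to bounds against Colon26.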
